A study of Rattus norvegicus with 30 samples.

Results

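Cultures of primary rat hepatocytes that had been exposed to 1000 uM clofibrate for 48 h were compared with cultures exposed to the same concentration for 24 h. The comparison rests on 5 arrays at 48 h and 5 arrays at 24 h, chosen by the concentration and the time in the sample labels, which is 10 of the 30 arrays of the series. The other 20 arrays hold cultures given 60 uM clofibrate for 48 h or 24 h and cultures given the solvent DMSO alone for 48 h or 24 h, with 5 arrays in each of these 4 groups. All 6 groups were thawed hepatocytes of male Sprague Dawley rats, plated on collagen under a Matrigel overlay and dosed on day 3 of culture, and the dosing solutions of all groups were made up in 1% DMSO. Wells were inspected for visible cell death before harvest, with no result given in the labels. Each array was made from 1 well, described as a separate culture. The labels do not name animals or donors, so the p-values measure the spread between wells. They also do not say whether clofibrate was given again after the first dose. A 48 h culture is both a longer exposure and an older culture, so these cannot be told apart at 1000 uM alone. The same step in DMSO cultures, which share no array with the 1000 uM cultures, measured the change with culture time in the absence of clofibrate.

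Clofibrate is a fibrate, a class of lipid-lowering drugs whose active acid binds the nuclear receptor PPAR-alpha. In rat liver this receptor drives the genes of peroxisomal and mitochondrial fatty acid oxidation, of omega-hydroxylation and of fatty acid uptake. A second programme that matters for the results is the integrated stress response, in which phosphorylation of a translation initiation factor raises the transcription factor ATF4. ATF4 in turn drives amino acid transporters, amino acid synthesis and many of the enzymes that charge tRNAs. Plated hepatocytes also change with time in culture, and many of their liver-specific genes decline.

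Signs of array quality overlapped between the times. The 3'/5' signal ratio of actin, a sign of RNA degradation, averaged 2.476 ± 0.174 at 48 h and 2.559 ± 0.153 at 24 h (SD, n = 5 each, exact permutation p = 0.429). The running number in the labels passes through the 6 groups 5 times in a fixed order, and within these 5 passes the actin ratio was lower at 48 h in all 5, with a mean difference of -0.0829 (exact sign-flip p = 0.0625, the smallest that 5 pairs can give). Probe sets above the floor set by bacterial control sets made up 81.33% ± 0.593 at 48 h and 81.37% ± 0.535 at 24 h (exact permutation p = 0.913). Correlations of log2 signal between arrays were 0.973 to 0.976 among the 48 h arrays, 0.973 to 0.978 among the 24 h arrays and 0.961 to 0.969 between the times. The deposited signals had been scaled so that each array had the same trimmed mean, so a change in total RNA per cell would not show. In the whole series, replicate 1 of DMSO at 48 h stood apart, with a residual SD of 0.336. It enters the comparisons with DMSO directly and, through the shared estimate of spread, the errors of all comparisons.

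At 1000 uM, 1845 of 18625 probe sets were higher at 48 h and 2049 were lower (limma, adjusted p under 0.05), so 47.4% of the calls were rises. Counted as genes, each by its brightest probe set, 1256 of 10627 rose and 1450 fell, which is 11.8% and 13.6% of the genes tested. Most changes were small: 68 genes rose and 55 fell by at least 2-fold. In 2210 genes, or 20.8% of those tested, all 5 arrays of one time lay beyond all 5 of the other. Scaling the arrays on the bacterial poly-A spike-in transcripts in place of the deposited scaling gave 1862 probe sets higher and 671 lower, so 73.5% of calls were then rises. This scaling moved the median change over all probe sets to 0.085, against -0.0054 as deposited, and small falls are therefore less secure than small rises.

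The largest rises at 1000 uM were in genes of fatty acid desaturation and in several genes of other roles. Scd2, a stearoyl-CoA desaturase, had signals of 1948, 1521, 1837, 2102 and 1881 at 48 h, against 488, 416, 328, 476 and 400 at 24 h. This was a 4.43-fold rise (log2 2.15, SE 0.168, adjusted p = 1.07e-11), with no overlap between the times, although a second, dimmer probe set of Scd2 gave a log2 difference of -0.08 and did not pass (adjusted p = 0.831). Fads1, the delta-5 desaturase of polyunsaturated fatty acids, had 10215, 9390, 10193, 13624 and 14084 at 48 h, against 2973, 3214, 2945, 3044 and 3284 at 24 h. Fads1 rose 3.67-fold (log2 1.88, SE 0.114, adjusted p = 3.06e-14), and its 48 h arrays spread more widely than its 24 h arrays. Fads2, the delta-6 desaturase of the same pathway, had 4372, 4135, 4219, 5121 and 5594 at 48 h, against 1428, 1296, 1851, 1305 and 1689 at 24 h, a 3.11-fold rise (log2 1.64, SE 0.139, adjusted p = 6.81e-11). The groups did not overlap for any of the 3.

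Prss23, a secreted serine protease, had 7062, 6754, 6554, 7003 and 6793 at 48 h, against 1596, 1274, 1640, 1761 and 1814 at 24 h, and rose 4.26-fold (log2 2.09, SE 0.189, adjusted p = 2.67e-10). Cyp17a1, the steroid 17-alpha-hydroxylase, had 4299, 4524, 5645, 4437 and 4466 at 48 h, against 1373, 1385, 1386, 1612 and 1654 at 24 h, a 3.15-fold rise (log2 1.65, SE 0.113, adjusted p = 5.21e-13). Every 48 h array was above every 24 h array for both. The other genes among the 15 largest rises were Klrg1 (log2 2.12), Epb41l3 (1.95), Ttc39a (1.87), Clec14a (1.87), Slc17a2 (1.81), Tsx (1.73), Acta1 (1.71), Lmcd1 (1.59), Pnpla3 (1.58) and Pik3c2g (1.53). Klrg1, Ttc39a and Slc17a2 were dim at 24 h, with single arrays down to 37.3, 65.5 and 58.3, so the size of their rises is uncertain. Of 2 other probe sets of Pnpla3, 1 rose by 1.91 and 1 did not pass (log2 0.18, adjusted p = 0.619).

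The largest falls were of mixed roles and included genes of the interleukin-1 response and secreted liver proteins. Il1rn, the antagonist of the interleukin-1 receptor, had 130, 134, 398, 98.3 and 92.2 at 48 h, against 1543, 1275, 1288, 1488 and 1556 at 24 h. Its log2 change was -3.30 (SE 0.301, adjusted p = 2.96e-10), which is 9.87-fold lower at 48 h, and replicate 3 lay above the other 48 h arrays but below every 24 h array. Those other 48 h signals were near the floor signal of 79.1, so the size of the fall is uncertain. It ran from -3.67 to -2.80 under the alternatives. Il1r2, the decoy receptor of interleukin-1, had 346, 359, 403, 529 and 473 at 48 h, against 2507, 2070, 2273, 1997 and 2042 at 24 h (log2 -2.38, SE 0.165, adjusted p = 6.87e-13). The times did not overlap for either gene.

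A2m, the protease inhibitor alpha-2-macroglobulin and a rat acute phase protein, had 15086, 19280, 17688, 15148 and 15445 at 48 h, against 64074, 63610, 68744, 59284 and 61123 at 24 h, a log2 change of -1.94 (SE 0.064, adjusted p = 2.04e-20). Serpina6, the plasma carrier of corticosteroids, had 963, 927, 839, 704 and 566 at 48 h, against 3162, 3374, 3381, 3925 and 2977 at 24 h (log2 -2.09, SE 0.134, adjusted p = 1.11e-13). Both were lower on every 48 h array. The other large falls were C1qb (log2 -2.39), Gstp3 (-2.18), Serpina3c (-2.00), Cyp1a2 (-1.73), S100a6 (-1.66), Gpc4 (-1.64), Cyp2c13 (-1.56), Vopp1 (-1.54), Serpina3l (-1.45), Mthfd2 (-1.44) and Car3 (-1.41). The Serpina3 and Cyp2c genes belong to families of near-identical members, so their probe sets may not tell the members apart. The plot of leading genes shows the signals behind these values.

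**Figure D1:**
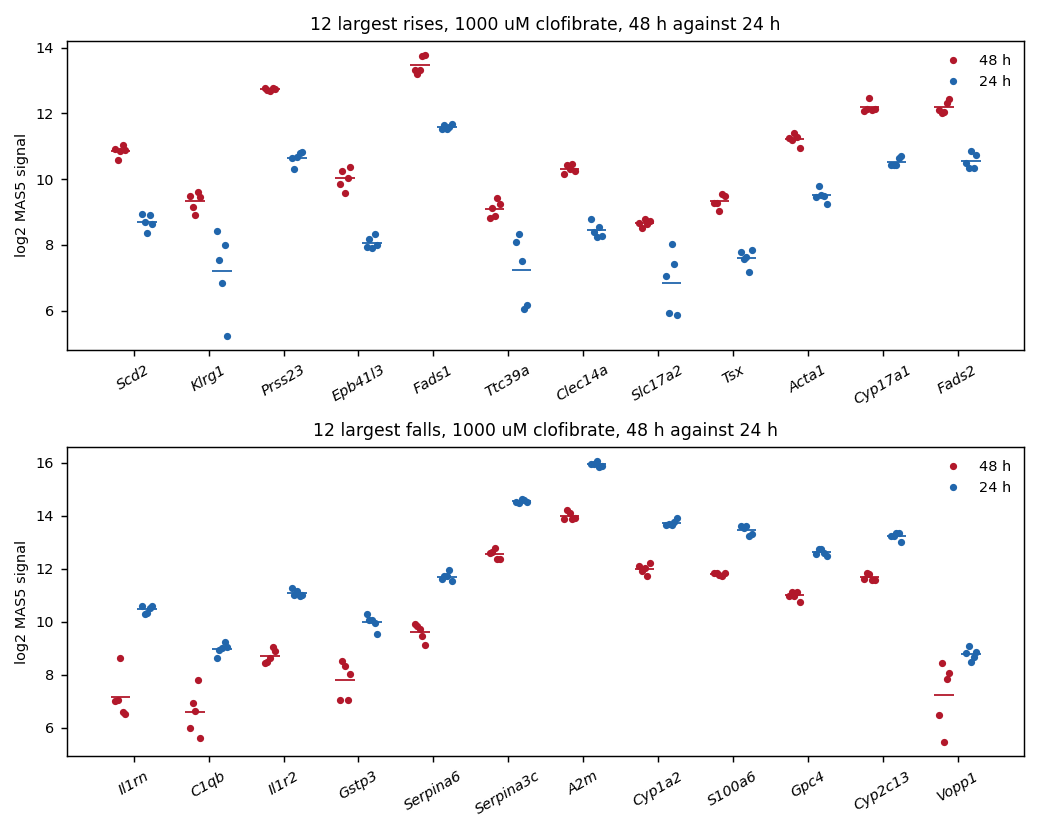
Signal of the 12 largest rises (top) and the 12 largest falls (bottom) at 1000 uM clofibrate, as log2 MAS5 signal on the y axis, with 1 point per array (5 at 48 h in red, left, and 5 at 24 h in blue, right) and a bar at the mean. Each gene's times do not overlap; the 48 h array of Il1rn that sits above the others is replicate 3, at a signal of 398.

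The group that fell most was that of ATF4 and the integrated stress response. Of its 30 genes, all tested, 24 fell and 1 rose at 1000 uM, and the median log2 change was -0.59, against a median of -0.01 over all 10627 genes. Falls made up 13.6% of all genes tested. The 19 tested genes of the cytosolic aminoacyl-tRNA synthetases, the enzymes that charge tRNAs with amino acids, held 16 falls and 0 rises, with a median of -0.44. Both lists were lower as a mean on every 48 h array than on any 24 h array. Under poly-A scaling 18 genes of the ATF4 list and 11 synthetases fell.

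Short stretches of promoter are shown for 7 of these falling genes because they carry the core letters of the amino acid response element, the sequence at which ATF4 and its C/EBP partners are known to bind. The letters searched were TGATGNAA, on both strands, in the RefSeq window of GRCr8 from 250 bases before to 50 bases after each gene's start. The capitals mark the match, and each sequence runs 5′ to 3′ on the gene's strand and ends before the start site.
Trib3, chr3:161275534-161275594, minus strand: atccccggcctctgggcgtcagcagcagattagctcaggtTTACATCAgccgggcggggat
Slc7a1, chr12:11664418-11664487, plus strand: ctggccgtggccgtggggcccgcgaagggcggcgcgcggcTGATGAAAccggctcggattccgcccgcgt
Chac1, chr3:126795924-126796011, plus strand: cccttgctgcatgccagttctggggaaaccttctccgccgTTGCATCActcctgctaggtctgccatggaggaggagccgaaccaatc
Fgf21, chr1:105221472-105221559, minus strand: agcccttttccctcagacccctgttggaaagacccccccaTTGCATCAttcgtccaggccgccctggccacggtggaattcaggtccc
Nupr1, chr1:190645909-190645996, minus strand: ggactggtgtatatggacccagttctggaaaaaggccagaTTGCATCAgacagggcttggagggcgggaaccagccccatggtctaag
Iars1, chr17:15193653-15193716, minus strand: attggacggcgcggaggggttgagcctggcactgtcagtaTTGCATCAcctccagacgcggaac
Mars1, chr7:65023754-65023810, minus strand: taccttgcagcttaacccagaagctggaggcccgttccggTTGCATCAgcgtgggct

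Only matches that end before the start were shown, for the largest falls of each list. These lie from 167 to 160 bases before the start in Chac1 down to 17 to 10 bases before it in Mars1. In Cars1 and Yars1 the match lies after the start, at bases 18 to 25 and 39 to 46. Of the 24 ATF4-list genes that fell, 23 have a promoter in the RefSeq table and 6 of these hold the letters (26.1%), namely Chac1, Trib3, Slc7a1, Fgf21, Nupr1 and Herpud1. Of the 16 synthetases that fell, 14 have a promoter and 6 hold the letters (42.9%), namely Aars1, Cars1, Iars1, Mars1, Nars1 and Yars1. Among all tested members, whatever their change, 6 of 28 ATF4-list promoters (21.4%) and 7 of 17 synthetase promoters (41.2%) hold them. The shares are thus those of the lists, and a link between the letters and the fall was not tested. The letters occur in 1048 of all 27457 promoters, or 3.82%. Core letters of other elements, named SRE (9 letters), DR1 (13) and NRF1 (10), were searched in the same windows for rising lists. SRE letters were in 0 of 17 lipogenesis and 0 of 15 cholesterol promoters (1.13% of all promoters). DR1 letters were in 0 of 14 peroxisomal and 0 of 18 mitochondrial beta-oxidation promoters (0.0583% of all). NRF1 letters were in 1 of 34 oxidative phosphorylation promoters, that of Atp5po (0.932% of all). A match is a description of these windows, and the absence of one says only that the letters are not within them.

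Among the regulators, Atf4 itself had 21234, 20972, 20377, 20109 and 18644 at 48 h, against 32822, 31093, 32757, 31123 and 31088 at 24 h, a log2 change of -0.65 (SE 0.052, adjusted p = 1.59e-11). Trib3, a pseudokinase that restrains ATF4, had 3837, 3511, 3259, 2753 and 2623 at 48 h, against 8164, 7145, 9447, 9377 and 6771 at 24 h (log2 -1.36, SE 0.144, adjusted p = 7.31e-09). The transcription factors Atf5 (log2 -0.77), Ddit3 (-0.58) and Atf3 (-0.37) fell, as did the stress-induced chromatin protein Nupr1 (-0.69) and the eIF2-alpha phosphatase subunit Ppp1r15a (-0.35). Chac1, which degrades glutathione, had 2637, 2123, 2744, 1978 and 1466 at 48 h, against 4174, 4648, 4515, 3670 and 3920 at 24 h (log2 -0.96, SE 0.125, adjusted p = 4.01e-07). No 48 h array of Atf4, Trib3 or Chac1 reached a 24 h array.

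Among the effectors, Asns, which makes asparagine, had 6851, 6627, 6456, 6454 and 5493 at 48 h, against 11944, 11780, 12724, 12334 and 12359 at 24 h (log2 -0.94, SE 0.061, adjusted p = 1.41e-13). Mthfd2, a mitochondrial folate enzyme, had 1507, 1143, 1096, 980 and 745 at 48 h, against 2318, 3042, 2983, 3278 and 2921 at 24 h (log2 -1.44, SE 0.138, adjusted p = 8.96e-10). The groups lay apart for both. Among amino acid transporters, Slc7a1 (log2 -1.01), Slc7a11 (-0.99), Slc3a2 (-0.80) and Slc38a2 (-0.61) fell, while a second probe set of Slc7a1 did not pass (log2 -0.25, adjusted p = 0.0756). In serine synthesis, Phgdh (-0.67) and Psph (-0.40) fell, whereas Psat1 was at -0.19 and did not pass. The secreted hormones Fgf21 (-0.78) and Gdf15 (-0.69) also fell. The fall of Herpud1 (log2 -0.17, adjusted p = 0.0298) was lost when any of 7 single arrays was left out (-0.16 to -0.14) and under poly-A scaling (-0.08). The only rise in the list was Aldh1l2, a mitochondrial folate enzyme (log2 0.65, adjusted p = 0.00081).

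Among the synthetases, Yars1 had 5411, 5924, 5367, 5105 and 5492 at 48 h, against 9374, 10534, 10932, 9757 and 10069 at 24 h (log2 -0.89, SE 0.066, adjusted p = 2.72e-12). Sars1 (log2 -0.80), Gars1 (-0.73), Iars1 (-0.60), Mars1 (-0.59), Cars1 (-0.46), Nars1 (-0.46) and Aars1 (-0.44) followed, and Hars1 (-0.01), Farsa (-0.12) and Tars1 (-0.22) did not pass.

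The same step in DMSO cultures changed few of these genes. In DMSO 2 genes of the ATF4 list rose and 3 fell (median -0.01), where 5.1% of all genes rose and 3.75% fell, and 1 of the 19 synthetases fell. The change at 1000 uM was lower than that in DMSO for 18 genes of the ATF4 list and higher for 1, where 5.54% of all genes were lower and 5.27% higher by this test of the difference. It was lower for 10 synthetases. Without replicate 1 of DMSO at 48 h these counts were 20 and 11, and under poly-A scaling 15 and 8. At 60 uM 12 genes of the ATF4 list and 8 synthetases fell, where 5.06% of all genes fell. For Asns the difference from DMSO was -0.96 (SE 0.086, adjusted p = 2.82e-09). Its mean signal was 6376 at 48 h and 12228 at 24 h with 1000 uM, and 8269 at 48 h and 8119 at 24 h in DMSO, so the 24 h mean at 1000 uM lay above both DMSO means and the 48 h mean below both. Mthfd2 likewise averaged 1094 and 2908 at 1000 uM, and 2511 and 2405 in DMSO, in the order 48 h and 24 h. These dose differences at one time were not tested here.

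**Figure D2:**
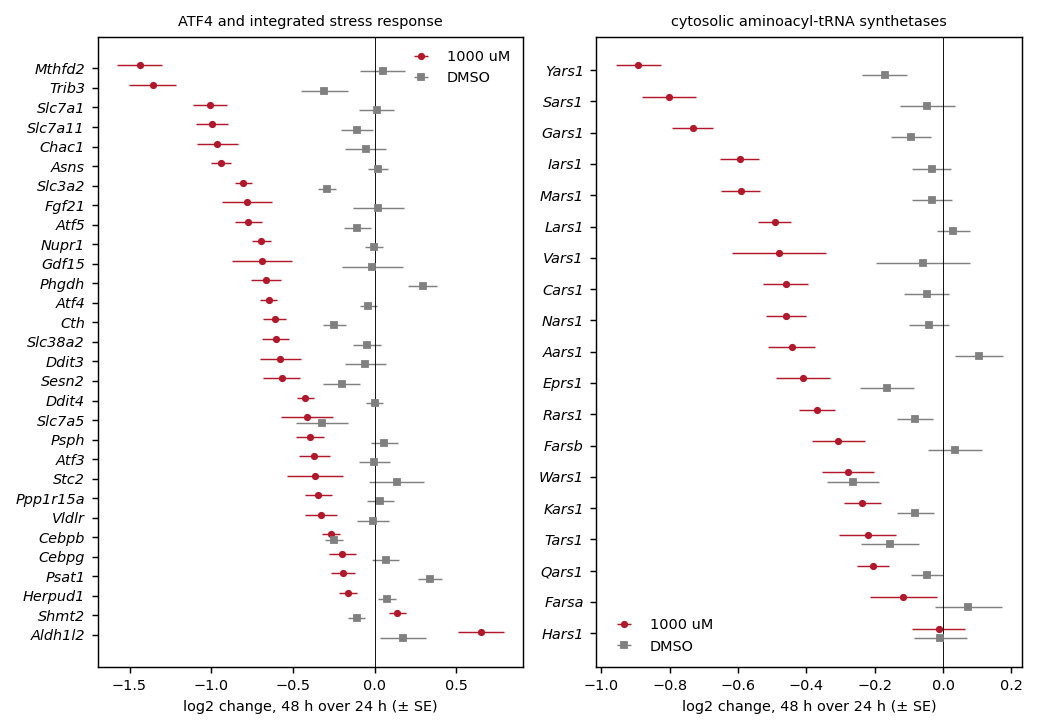
Log2 change from 24 h to 48 h (x axis, 48 h over 24 h) of every tested gene of the ATF4 list (left) and of the cytosolic aminoacyl-tRNA synthetases (right), at 1000 uM clofibrate in red and in DMSO in grey, with bars of 1 SE from the limma fit. At 1000 uM the changes run from -1.44 for Mthfd2 to 0.65 for Aldh1l2, while the DMSO values cluster near 0.

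Genes of fatty acid oxidation rose between the times. Of 15 tested genes of peroxisomal beta-oxidation 13 rose and 0 fell (median log2 0.30), and of 22 of mitochondrial beta-oxidation 20 rose and 0 fell (median 0.29). Rises made up 11.8% of all genes. In DMSO 5 and 8 of these genes rose, with medians of 0.09 and 0.10, and 2 and 0 fell. Of all genes 5.1% rose and 3.75% fell in DMSO. Under poly-A scaling 8 and 10 of the oxidation genes rose in DMSO and 0 fell. The rise at 1000 uM was larger than in DMSO by the test of the difference for 7 of the peroxisomal and 11 of the mitochondrial genes, and smaller for 0 of either. Under poly-A scaling these counts were 1 and 3. As deposited, 5.27% of all genes were higher and 5.54% lower by this test.

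Ehhadh, the peroxisomal bifunctional enzyme, had 73814, 74842, 77876, 80956 and 80263 at 48 h, against 47732, 43565, 47503, 48139 and 48752 at 24 h, a log2 rise of 0.72 (SE 0.076, adjusted p = 6.45e-09). Ehhadh also rose in DMSO (log2 0.64), and the difference of the changes was 0.08 and did not pass (SE 0.107, adjusted p = 0.761). Decr2 (log2 0.63), a peroxisomal dienoyl-CoA reductase, and Acot8 (0.58), a peroxisomal thioesterase, rose by more than in DMSO, where Acot8 was at -0.21. Crot (-0.02) and Amacr (-0.03) did not pass.

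Acadm, the medium-chain acyl-CoA dehydrogenase of mitochondria, had 34471, 35632, 35774, 40151 and 40600 at 48 h, against 22327, 19643, 20930, 22141 and 21575 at 24 h (log2 0.81, SE 0.063, adjusted p = 1.11e-11). All 48 h arrays lay above all 24 h arrays, and the rise exceeded that in DMSO by 0.52 (SE 0.089, adjusted p = 0.000132). Cpt1b (log2 0.67) and Cpt1a (0.50), which carry acyl groups into mitochondria, Acads (0.61), the short-chain dehydrogenase, and the acyl-CoA synthetase Acsl1 (0.18) rose as well, and the call for Acsl1 was lost without replicate 4 of 24 h (0.14, adjusted p = 0.0532). Peroxisome assembly and division moved less, with 6 of 17 genes higher and 0 lower (median 0.11), among them Pxmp2 (0.66), a peroxisomal membrane channel, and the import proteins Pex19 (0.45) and Pex7 (0.43).

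Not every gene known as a PPAR-alpha target rose. Fabp1, the fatty acid binding protein of hepatocytes, had 79342, 80576, 78241, 81420 and 78074 at 48 h, against 41670, 34731, 39690, 39742 and 36043 at 24 h (log2 1.05, SE 0.056, adjusted p = 1.61e-15). It was at -0.07 in DMSO, and the difference was 1.13 (SE 0.079, adjusted p = 2.22e-11). The glycerol channel Aqp7 rose by 1.29 and the pantetheinase Vnn1 by 1.16. Cd36, a fatty acid transporter, had 14580, 15289, 16969, 19726 and 19330 at 48 h, against 6544, 6263, 7359, 7223 and 6445 at 24 h. This was a 2.53-fold rise (log2 1.34, SE 0.152, adjusted p = 3.37e-08), and Cd36 rose by 1.19 in DMSO.

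Cyp4a1, the fatty acid omega-hydroxylase that marks PPAR-alpha activation in the rat, had 80665, 84546, 79904, 81776 and 83955 at 48 h, against 71718, 66669, 70752, 67878 and 73139 at 24 h. The arrays did not overlap, but the change of 0.23 did not pass (SE 0.094, adjusted p = 0.0824), and it passed with only the groups compared in the fit and under poly-A scaling. In DMSO Cyp4a1 rose by 0.89, and its change at 1000 uM was lower than that by 0.66 (adjusted p = 0.00108). At 1000 uM the highest signal of any probe set was 105140 to 111440 on the 48 h arrays and 95378 to 108400 on the 24 h arrays. Cyp4a1 thus lay in the upper range at both times, and compression of the scale there was not tested. Cyp4a3 (0.10), Plin2 (0.05), Angptl4 (-0.07) and Ucp2 (0.70) did not pass, and a second probe set of Plin2 fell by 0.60. Ucp2 passed with only the groups compared (limma adjusted p = 0.00191), and its change was 0.62 to 0.80 under the alternatives. Acot1, a cytosolic thioesterase, had 50960 to 54942 at 48 h and 38384 to 42829 at 24 h without overlap, yet its change of 0.35 did not pass in the fit of all arrays (SE 0.465, adjusted p = 0.675) and passed with only the groups compared. Its signals in DMSO ran from 78 to 739 at 48 h and from 10 to 92 at 24 h. Pdk4, the kinase that shuts down pyruvate oxidation, fell by 0.24 (SE 0.063, adjusted p = 0.00432), a call that was lost under poly-A scaling (-0.15).

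Omega-hydroxylation and acyl-CoA thioesterases held 5 rises and 0 falls among 14 genes (median 0.20), and the rises became 8 with only the groups compared. The rises included Cyp4f5 (1.16), Cyp4f4 (0.71) and the fatty aldehyde dehydrogenase Aldh3a2 (0.35). In DMSO 5 of the 14 rose and 0 fell (median 0.20). The change at 1000 uM was higher than that in DMSO for 1 gene and lower for 1. The other PPAR-alpha targets, 30 genes, held 11 rises and 7 falls (median 0.22), against 9 and 1 in DMSO. For these 30 the change was higher than in DMSO for 3 and lower for 4. Of all genes 11.8% rose and 13.6% fell at 1000 uM, and 5.1% and 3.75% in DMSO. By the test of the difference 5.27% were higher and 5.54% lower. In ketone body metabolism Bdh1, a ketone body dehydrogenase, rose by 0.77 while the monocarboxylate transporters Slc16a6 (-0.79) and Slc16a1 (-0.48) fell.

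**Figure D3:**
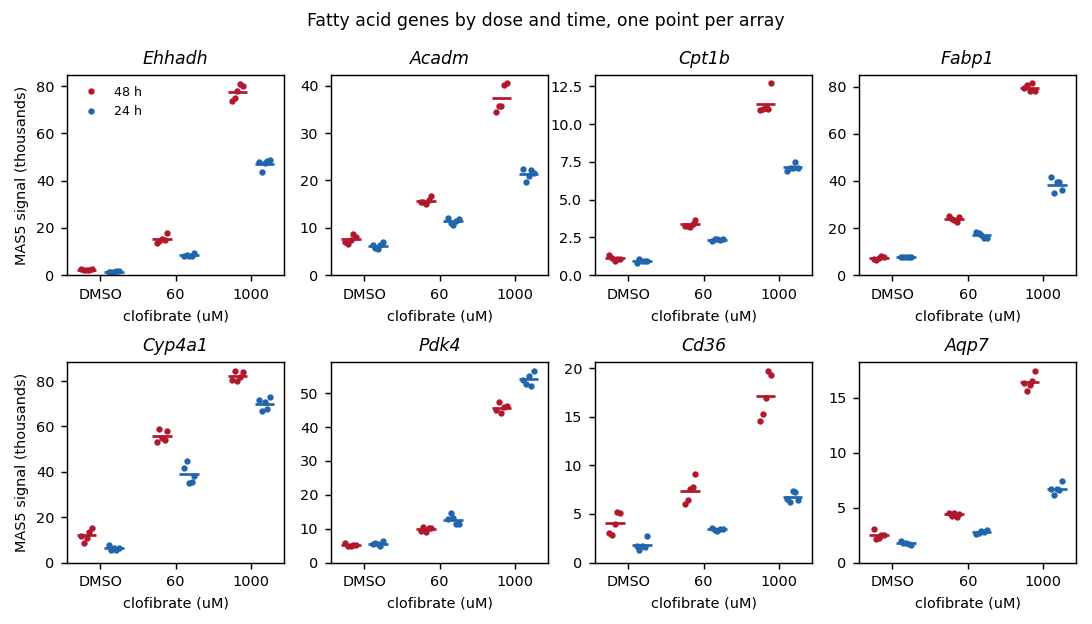
MAS5 signal divided by 1000 (y axis from 0) of 8 fatty acid genes in DMSO and at 60 and 1000 uM clofibrate (x axis), with 1 point per array, 48 h in red on the left and 24 h in blue on the right, and a bar at the mean of 5. At 1000 uM, Fabp1, Cd36 and Aqp7 at 48 h lie well above 24 h, Cyp4a1 differs little (log2 0.23), and Pdk4 is lower at 48 h.

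Genes of lipid synthesis rose alongside those of oxidation. Of 22 tested genes of lipogenesis and desaturation 15 rose and 2 fell (median 0.37), and of 19 of cholesterol synthesis and uptake 14 rose and 1 fell (median 0.43). Over all genes the shares were 11.8% and 13.6%. Fasn, the fatty acid synthase, had 6378, 6084, 6012, 6889 and 7560 at 48 h, against 2543, 2860, 3179, 2815 and 2826 at 24 h (log2 1.21, SE 0.105, adjusted p = 1.15e-10). The times were fully apart. Acly, which makes cytosolic acetyl-CoA, rose by 0.68. Elovl1 (-0.32), an elongase of very long chains, and Dgat2 (-0.17), an acyltransferase of triglyceride synthesis, were the 2 falls, and neither passed under poly-A scaling. In the sterol branch Lss (0.69), Dhcr7 (0.67), Msmo1 (0.62) and Sqle (0.53) rose, and Tm7sf2, a sterol reductase, fell by 0.43.

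In DMSO 10 lipogenesis genes rose and 1 fell (median 0.22), and 9 sterol genes rose and 1 fell (median 0.21). Of all genes 5.1% rose and 3.75% fell in DMSO. The change at 1000 uM exceeded that in DMSO for 10 lipogenesis genes and 4 sterol genes, and was smaller for 1 and 0. By this test 5.27% of all genes were higher and 5.54% lower. The difference was 1.66 for Fads2 (SE 0.197, adjusted p = 5.28e-07), which stood at -0.03 in DMSO, and 0.67 for Fads1 (SE 0.161, adjusted p = 0.00636), which rose by 1.21 in DMSO. For Scd2 the difference of 0.25 did not pass (SE 0.238, adjusted p = 0.639). Those of Fasn (0.47, adjusted p = 0.046) and Acly (0.28, adjusted p = 0.03) passed narrowly, and both were lost when single arrays were left out, for example at 0.37 and 0.26 without replicate 1 of DMSO at 24 h. Under poly-A scaling 1 lipogenesis gene and 0 sterol genes differed from DMSO, and Fads1 no longer did (0.60, adjusted p = 0.0652).

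Mitochondrial and amino acid genes also rose at 1000 uM. Of 38 tested genes of oxidative phosphorylation 24 rose and 0 fell, with a small median of 0.15, where 11.8% of all genes rose. In DMSO 0 of the 38 rose and 1 fell (median -0.04), and at 60 uM 0 rose and 0 fell (limma), where 5.65% of all genes rose. The change at 1000 uM was higher than that in DMSO for 21 and lower for 0, with a median difference of 0.20. Under poly-A scaling the median difference was 0.14 and the difference passed for 0 of them (limma), with Sdha at 0.36 (adjusted p = 0.0572), while 25 rose at 1000 uM and 1 rose in DMSO. Sdha, the flavoprotein of succinate dehydrogenase, had 18065, 18171, 17948, 18493 and 17980 at 48 h, against 13482, 13115, 13298, 13983 and 14064 at 24 h (log2 0.42, SE 0.037, adjusted p = 1.54e-10). Its arrays at one time did not meet those at the other. Sdhb (0.22), Sdhc (0.29) and Sdhd (0.27), the other subunits of the same complex, rose too, as did Ndufs3 (0.33) of complex I and Atp5f1c (0.30) of the ATP synthase.

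Of 39 genes of the urea cycle and amino acid catabolism 22 rose and 8 fell (median 0.27), where 11.8% of all genes rose and 13.6% fell. The falls numbered 4 under poly-A scaling. In DMSO 4 of the 39 rose and 5 fell (median -0.04), or 9 and 1 under poly-A scaling. Of all genes 5.1% rose and 3.75% fell in DMSO. The change was higher than in DMSO for 21 of the 39 and lower for 5, against 5.27% and 5.54% of all genes. Under poly-A scaling it was higher for 7 and lower for 2. Otc, ornithine transcarbamylase of the urea cycle, had 2091, 2038, 2424, 2535 and 2301 at 48 h, against 1013, 697, 1080, 794 and 1034 at 24 h (log2 1.32, SE 0.117, adjusted p = 1.67e-10). Oat, which degrades ornithine, had 22869, 22042, 28272, 27451 and 25920 at 48 h, against 10173, 9496, 10136, 11530 and 12980 at 24 h (log2 1.22, SE 0.088, adjusted p = 1.41e-12), and was at -0.09 in DMSO. Both genes separated the times on all arrays. The proline oxidase Prodh2 (0.87), the glycine decarboxylase Gldc (0.72) and the tyrosine pathway enzyme Fah (0.68) rose, while the other urea cycle enzymes Ass1 (-0.27) and Asl (-0.40) fell and Cps1 (0.06) and Arg1 (0.08) did not pass.

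Genes of drug metabolism split. Of 22 cytochrome P450 and related genes 8 rose and 8 fell (median -0.12), where 11.8% of all genes rose and 13.6% fell. Cyp2e1, an ethanol and fatty acid oxidase, had 13335, 11513, 15382, 14097 and 15944 at 48 h, against 8905, 8073, 9194, 9475 and 8050 at 24 h (log2 0.68, SE 0.089, adjusted p = 4.66e-07). Cyp1a2, a target of the aryl hydrocarbon receptor, had 4394, 3915, 4240, 3370 and 4824 at 48 h, against 12830, 13149, 12787, 14024 and 15601 at 24 h (log2 -1.73, SE 0.075, adjusted p = 1.67e-17). The 48 h arrays were apart in both genes, in opposite directions. Cyp3a2, the main male rat form of its family, had 5822, 5904, 6617, 5559 and 5826 at 48 h and 6772, 6492, 6777, 7393 and 5531 at 24 h. Its change of -0.15 did not pass and its arrays overlap (SE 0.123, adjusted p = 0.473). In DMSO the signals of Cyp3a2 were 1516 to 2946 at 48 h and 5278 to 8045 at 24 h (log2 -1.55, adjusted p = 5.77e-11), and the difference of the changes was 1.40 (SE 0.174, adjusted p = 1e-06). The male-specific Cyp2c11 (-1.36) and Cyp2c13 (-1.56) fell, and Cyp2c13 fell by 2.29 in DMSO.

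Of 21 conjugation enzymes 11 rose and 3 fell (median 0.18), with 1 fall under poly-A scaling. Over all genes the shares were 11.8% and 13.6%, so the falls lay near the share of all genes. Sult1c3, a sulfotransferase, had 10360, 10440, 11264, 12290 and 11937 at 48 h, against 4030, 3593, 3992, 5056 and 3838 at 24 h (log2 1.46, SE 0.136, adjusted p = 4.75e-10), and its change exceeded that in DMSO by 1.75. The times did not overlap, and the glutathione transferase Gsta4 rose by 0.77. Of 19 NRF2 antioxidant genes 5 rose and 7 fell (median -0.04, turning to 0.0541 with 3 falls under poly-A scaling), with Srxn1 (-0.86) the sulfiredoxin and Akr1b8 (-0.74) an aldo-keto reductase among the falls.

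Among 19 bile acid genes 8 rose and 3 fell (median 0.03), where 11.8% of all genes rose and 13.6% fell. The falls thus lay near the share of all genes. Slc10a1, the uptake carrier of bile acids, had 10906, 9744, 10298, 11829 and 12297 at 48 h, against 5339, 4445, 4203, 5127 and 5491 at 24 h (log2 1.17, SE 0.071, adjusted p = 3.06e-14). The uptake carrier Slco1b2 rose by 1.20, Cyp8b1, which sets the ratio of bile acids, by 0.85, and Cyp7a1, which catalyses the first step of the main route to bile acids, by 0.93. Abcc2, the canalicular export pump of conjugates, had 6126, 6414, 5756, 5863 and 5173 at 48 h, against 12885, 14546, 13889, 12080 and 11637 at 24 h (log2 -1.15, SE 0.059, adjusted p = 6.25e-16). Slc10a1 was thus higher and Abcc2 lower on every 48 h array. Abcc2 was at 0.00 in DMSO and differed from it by -1.15 (SE 0.083, adjusted p = 3.41e-11).

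Acute phase proteins fell more often than they rose, while complement and lipoprotein genes went both ways. Of 23 acute phase and plasma proteins 1 rose and 14 fell (median -0.26), and 9 fell under poly-A scaling. Over all genes the shares were 11.8% and 13.6%. The hormone of iron control Hamp (-1.34), the glycoprotein Ahsg (-0.95) and the fibrinogen chain Fgb (-0.80) fell, and a second probe set of Fgb did not pass (-0.42). Ahsg had 28070, 28710, 27924, 29163 and 29036 at 48 h, against 56086, 52796, 56735, 53906 and 56758 at 24 h (SE 0.044, adjusted p = 5.34e-17), and was at -0.04 in DMSO. Crp, the pentraxin, was the rise, with 12763, 13763, 13805, 17617 and 19607 at 48 h, against 7652, 7721, 7495, 7309 and 7163 at 24 h (log2 1.04, SE 0.087, adjusted p = 5.34e-11). The 2 genes thus moved apart with no overlap of times. In DMSO 2 of the 23 rose and 13 fell (median -0.17, with 5 falls under poly-A scaling), and Hamp fell by 1.32 there, a difference of -0.01 that did not pass. Of all genes 5.1% rose and 3.75% fell in DMSO.

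Of 27 complement and coagulation genes 9 rose and 13 fell (median -0.16), with 8 falls under poly-A scaling. Over all genes the shares were 11.8% and 13.6%. C6 (-1.13), C1r (-0.90) and C3 (-0.78) of the complement cascade fell, and the cascade component C5 rose by 0.65. In DMSO 1 of the 27 rose and 9 fell (median -0.15), where 5.1% of all genes rose and 3.75% fell. The change at 1000 uM was higher than that in DMSO for 9 and lower for 4, against 5.27% and 5.54% of all genes. The lower ones included C6, C1r and C3. Under poly-A scaling these counts were 3 and 3. Of 19 apolipoproteins and lipoprotein genes 4 rose and 7 fell (median 0.03). Lpl, lipoprotein lipase, rose by 1.45 and was at 0.18 in DMSO. Apoa5, an activator of that lipase, fell by 0.69 against a rise of 0.26 in DMSO (difference -0.95, SE 0.094, adjusted p = 2.15e-08). Apoa2 (-0.86) and Lcat (-0.79) fell at both, by 0.84 and 0.60 in DMSO. Alb did not pass (0.12, adjusted p = 0.283).

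Inflammatory genes fell in part, where 13.6% of all genes fell and 11.8% rose. Of 21 genes of the NF-kB and interleukin-1 response 8 fell and 1 rose (median -0.21), the falls including Il1rn, Il1r2 and the chemokine Cxcl1 (-0.98), and the rise being the NF-kB inhibitor Tnfaip3 (0.32). Of 20 interferon-stimulated genes 8 fell and 0 rose (median -0.26), among them Ifitm3 (-1.23), Isg15 (-0.71) and Rsad2 (-0.66). In DMSO 5 and 7 of the 2 lists fell, where 3.75% of all genes fell, or 3 and 4 under poly-A scaling. The difference from DMSO was -1.30 for Il1rn and did not pass (SE 0.425, adjusted p = 0.0537), and it was -1.82 for Il1r2 (SE 0.234, adjusted p = 1.91e-06).

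Markers of other liver cells were measured beside these falls, at levels from under the floor (Adgre1) to a log2 signal of 13.83 at 48 h and 13.86 at 24 h (Cd14). Shares over all genes were 11.8% of rises and 13.6% of falls. Of 11 tested markers of Kupffer cells and macrophages 3 fell and 0 rose (median -0.26), namely C1qb, C1qa (-0.86) and Lyz2 (-0.26), and the call for Lyz2 was lost without replicate 2 (-0.22) or 5 (-0.18) of 24 h. Without replicate 3 of 48 h 5 of the 11 fell. The signals of the 14 such markers on the array summed to 23650 to 25230 at 48 h, against 26440 to 28560 at 24 h. The brightest, Cd14, did not pass (log2 -0.04, adjusted p = 0.7). Cd14 and Lyz2 weigh most in these sums, which say little about the dimmer markers. The defining marker Adgre1 lay under the floor at both times, and Clec4f did not pass (-0.71). In DMSO 3 of the 11 fell (median -0.44), where 3.75% of all genes fell. Of 5 endothelial markers 1 fell, Lyve1 (-0.58), a call that was lost without replicate 2 of 48 h (-0.40) or replicate 5 of 24 h (-0.51). Of 6 stellate cell markers 1 rose, Col3a1 (0.24), a call lost when any of 8 single arrays was left out and with the running number as a block, and of 2 bile duct markers 1 rose, Epcam (0.40). Neither of the 2 lymphoid markers tested passed. In such cultures fewer cells of a type and less RNA per cell cannot be told apart, and the part of other cells in the inflammatory and acute phase results was not tested. Among 9 hepatocyte markers Ahsg, Fgb, Hpx and Serpina1 fell (2 of the 4 under poly-A scaling) and the receptor Asgr1 rose (0.24), and their summed signal was 480000 to 500200 at 48 h and 525900 to 581100 at 24 h.

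Protein folding genes fell modestly under the deposited scaling. Of 21 ER chaperone genes 11 fell and 2 rose (median -0.15), and of 18 heat shock genes 10 fell and 1 rose (median -0.20). Under poly-A scaling the falls numbered 3 and 4. As deposited, 13.6% of all genes fell and 11.8% rose. Creld2 (-0.56), Dnajb9 (-0.43) and Sdf2l1 (-0.39) of the ER and Cryab (-0.73), Hspa1a (-0.51) and Hsph1 (-0.47) of the heat shock group had the largest falls, while the oxidoreductases Pdia4 (0.27) and P4hb (0.10) and the chaperonin Hspd1 (0.15) rose. The rises of P4hb and Hspd1 were lost when single arrays were left out, at 0.09 and at 0.13 to 0.14, and under poly-A scaling. Cryab rose by 0.51 in DMSO, and the difference was -1.24 (adjusted p = 4.95e-08). In DMSO 8 ER and 1 heat shock genes fell, where 3.75% of all genes fell, and 0 of either list fell under poly-A scaling.

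In the remaining groups most genes did not pass, and many counts were near the 11.8% of rises and 13.6% of falls among all genes. Of 16 p53 targets 6 fell and 2 rose (2 falls under poly-A scaling), with Gadd45a at -0.85 and Sesn1 at 0.73. Of 22 cell cycle genes 2 rose and 1 fell. One of the rises was Spc24, a kinetochore protein, which had 14381, 14198, 14756, 13604 and 13430 at 48 h, against 8725, 7852, 8992, 9933 and 8835 at 24 h (log2 0.67, SE 0.069, adjusted p = 4.52e-09). In DMSO Spc24 was lower at 48 h (1027 to 1338) than at 24 h (1794 to 2082), a log2 change of -0.65, and its change differed by 1.32 (SE 0.098, adjusted p = 5.02e-11). The other calls were Tk1 (0.47) and Tyms (-0.40), both of thymidine supply, and Tyms was lost without any of 5 single arrays. The cytoskeletal list held 3 rises, with Acta1 in front, and 6 falls among 26, led by S100a6. In DMSO 7 of the 26 rose and 1 fell, where 5.1% of all genes rose and 3.75% fell. The change at 1000 uM was lower than that in DMSO for 9 and higher for 0, or 5 and 0 under poly-A scaling. As deposited, 5.54% of all genes were lower and 5.27% higher by this test. Of 25 hepatocyte transcription factors 3 rose and 4 fell (2 falls under poly-A scaling), shares near those of all genes, among them Dbp (0.61), Rora (-0.67) and Esrra (-0.47). A second probe set of Rora did not pass (0.09), and Esrra was lost without any of 4 single arrays.

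In glucose metabolism 8 of 25 genes rose and 2 fell, with Slc37a4, the glucose 6-phosphate carrier, at 0.49 and the pyruvate carboxylase Pc at 0.47, against Pck2, the mitochondrial PEPCK, at -0.76. Of 26 lysosomal genes 9 rose and 4 fell, led by Ctsd (0.49) and Grn (0.43) and by Ctss (-0.77), and 1 fell under poly-A scaling. Of 15 metal genes 4 rose and 1 fell, the rises including the iron importers Slc11a2 (0.52) and Tfrc (0.34), each with a second probe set that did not pass. Of 18 YAP and TGF-beta targets 2 rose, Ccn1 (0.68, lost with only the groups compared, adjusted p = 0.0678) and Tgfbi (0.44), and 4 fell, among them Timp1 (-0.61), with 1 fall under poly-A scaling. Of 30 proteasome subunits 5 fell and 0 rose, by at most 0.26, and of 21 ribosomal proteins 2 fell and 0 rose. Under poly-A scaling 0 proteasome and 0 ribosomal genes fell, and quantile normalization gave 13 ribosomal falls.

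**Figure D4:**
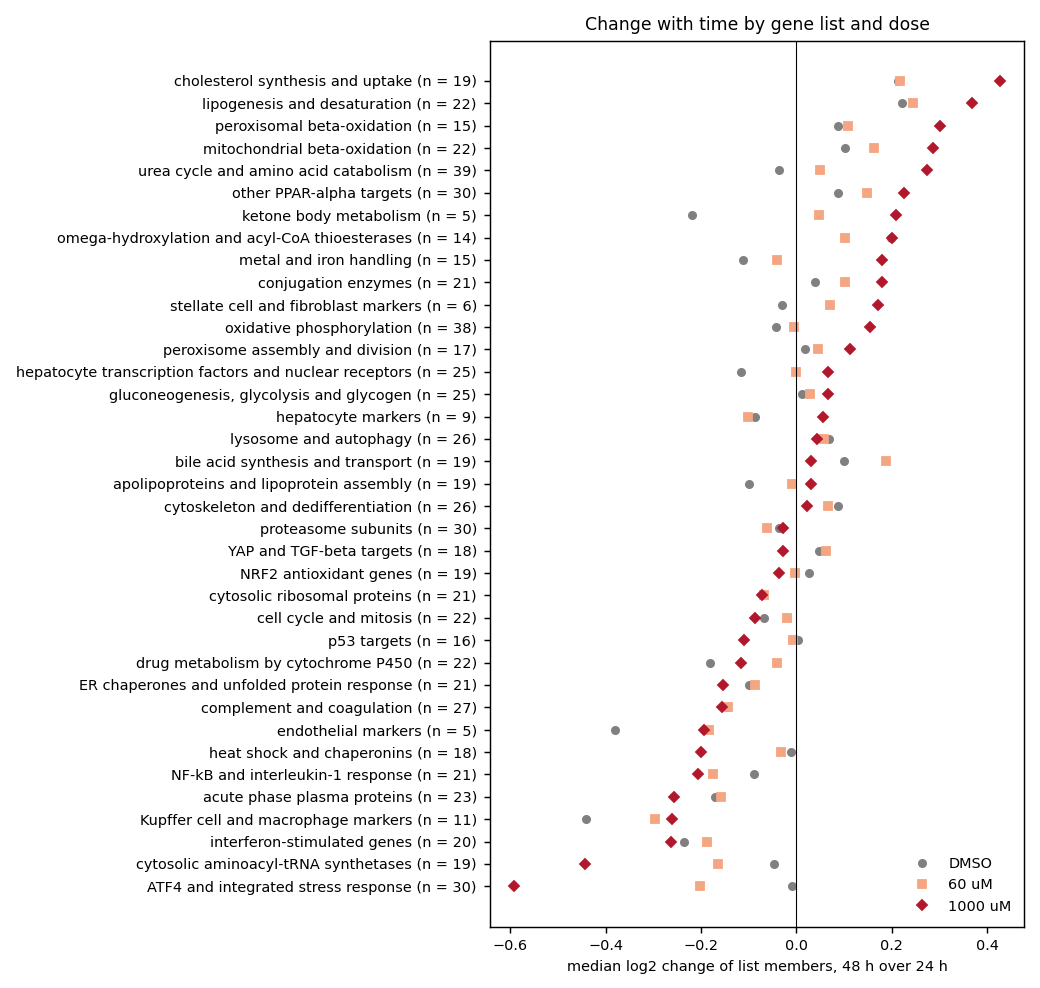
Median log2 change of the tested members of each gene list with at least 5 of them (48 h over 24 h, x axis), in DMSO (grey circles), at 60 uM (orange squares) and at 1000 uM clofibrate (red diamonds), sorted by the value at 1000 uM. The lists run from ATF4 at -0.59 to cholesterol synthesis at 0.43, and the 60 uM values of ATF4, synthetases and beta-oxidation lie between those of DMSO and 1000 uM.

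Set against the other cultures, the 1000 uM cultures changed more genes with time. In DMSO 542 genes rose and 399 fell, together 8.85% of those tested, and at 60 uM 600 rose and 538 fell. These counts depend on the scaling for DMSO: poly-A scaling gave 1567 probe sets higher and 121 lower there, against 722 and 571 as deposited, and moved the median change to 0.14. Of the 1256 genes that rose at 1000 uM, 294 also rose in DMSO, which is 23.4% of the first list and 54.2% of the second, and 25 fell in DMSO. Of the 1450 that fell, 235 fell in DMSO, or 16.2% and 58.9%, and 26 rose in DMSO. With 60 uM the shared rises numbered 427 (34% and 71.2%) and the shared falls 408 (28.1% and 75.8%).

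The change at 1000 uM was higher than that in DMSO for 560 genes and lower for 589, together 10.8% of those tested, and it was higher than that at 60 uM for 245 (2.31%) and lower for 199 (1.87%), together 4.18%. Under poly-A scaling 160 probe sets were higher and 386 lower than in DMSO, against 776 and 768 as deposited. Of the 2706 genes that changed at 1000 uM, 967 also differed from DMSO and 414 from 60 uM. Across genes, which are not independent replicates, the log2 changes at 1000 uM correlated with those in DMSO at r = 0.362 and with those at 60 uM at r = 0.536, as a description of arrays in one series. The 5 largest positive differences from DMSO were Slc7a3 (2.62), Cd6 (2.45), Sult1c3 (1.75), Fads2 (1.66) and Sectm1b (1.64), of which Slc7a3, Cd6 and Sectm1b were dim and did not pass at 1000 uM alone. The 5 largest negative ones were Il1r2 (-1.82), Osbpl5 (-1.64), C1qb (-1.54), Slc43a2 (-1.51) and Procr (-1.50). Procr, the endothelial protein C receptor, fell by 1.00 at 1000 uM and rose by 0.49 in DMSO, and Osbpl5 did not pass at 1000 uM alone. The differences of Osbpl5, C1qb and Sectm1b lost their calls when any of several single arrays was left out, for example at -1.33 (adjusted p = 0.0789) and -1.45 (0.0576) and 1.46 (0.0677) without replicate 1 of DMSO at 24 h, and that of Cd6 without replicate 3 of 1000 uM at 24 h (2.09, 0.0546).

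Other genes moved in the same direction with culture time with and without clofibrate, and the test found no difference between the changes. The log2 change was -2.09 at 1000 uM and -2.51 in DMSO for Serpina6, -2.00 and -1.95 for Serpina3c, -2.18 and -2.29 for Gstp3 and -1.34 and -1.32 for Hamp, and none of these 4 differences passed. For Scd2, Tsx and Acta1, with rises of 2.15, 1.73 and 1.71 at 1000 uM and 1.90, 1.71 and 1.46 in DMSO, the differences of 0.25, 0.02 and 0.25 did not pass either. A difference that misses the threshold does not show that the changes were equal.

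**Figure D5:**
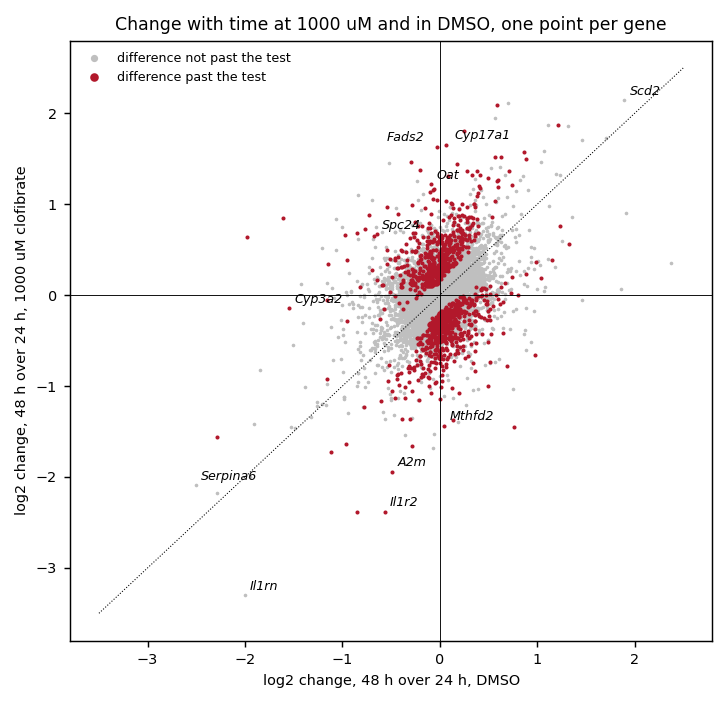
Log2 change from 24 h to 48 h of 10627 genes at 1000 uM clofibrate (y axis) against DMSO (x axis), 1 point per gene, with genes whose changes differ by the limma test in red, the others in grey and the line of equality dotted. Fads2, Cyp17a1, Oat and Mthfd2 lie near 0 in DMSO and far from 0 at 1000 uM, whereas Scd2 and Serpina6 lie near the line.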

How the data were processed

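Total RNA of 30 hepatocyte cultures was hybridised to Affymetrix rat arrays. The intensity values, linear probe set signals, were deposited by the authors and made with MAS5, per the submitters' processing notes, which give no version. Leaving out 2% at each end, each array had a mean of 1501. From these signals log2 values were computed with no constant added. Of 31042 probe sets that are not controls, the 18625 above the 40th percentile of mean signal (log2 8.00) entered 1 limma fit of 6 group means over all 30 arrays with an intensity trend, Benjamini-Hochberg adjustment per comparison and a threshold of 0.05 (R 4.3.3, limma 3.58.1). The fit was tested on simulated data. All adjusted p-values are limma's. Changes are 48 h over 24 h. Array quality measures were compared by two-sided exact permutation tests, whose smallest possible p is 0.00794.

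Gene symbols came from the annotation of the array platform, updated by gene identifier to GRCr8. Of the probe sets 20826 had 1 symbol, 436 several and 9780 none; 20758 were matched by identifier, 2 by accession and 66 kept the platform's symbol. Each gene is its brightest probe set (10627 genes). Over 37 further probe sets of named genes, 13 differed from the main probe set in whether they passed, 1 of them (Plin2) with a fall beside a main change above 0 that did not pass, and 0 pairs passed in opposite directions. The floor was a log2 signal of 6.31, the highest group mean of 3 bacterial TrpnX control sets. Promoters are those of RefSeq for GRCr8.

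The gene lists (33 of pathways, 6 of cell types), the naming rule, the cultures and the alternatives were chosen with earlier results of these data known. The rule took the 15 largest rises and falls with no overlap of arrays, up to 3 genes per list, the 5 largest differences from DMSO each way and a set of PPAR-alpha genes, of which those without a tested probe set are not analysed here. It named 148 genes. Another 27, and other single list members given with a log2 change, were chosen after their values were seen. Alternatives changed the filter, the scaling, the constant, the variance model, the arrays in the fit and single arrays, and a block by running number was added after seeing the data.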

Additional observations from a re-analysis of the deposited data

Results flagged for a closer look

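In 350 sets of 5 arrays, 1 for each named gene at each time of 1000 uM, the highest or lowest array was compared with its neighbours, and 18 stood apart by Dixon's criterion of 0.71. Chance flags about 1 group in 20. At 48 h the arrays that stood apart were replicate 5 of Aldh3a2 (49572, others 42300 to 43764), replicate 5 of Asns (5493, others 6454 to 6851), replicate 5 of Cpt1b (12682, others 10917 to 11153) and replicate 3 of Cyp17a1 (5645, others 4299 to 4524). A further set held replicate 5 of Herpud1 (14236, others 12710 to 12910), replicate 3 of Il1rn (398, others 92.2 to 134), replicate 1 of Isg15 (3278, others 1853 to 2135) and replicate 5 of Kdr (766, others 549 to 596). To these were added replicate 2 of Lyz2 (4439, others 4083 to 4168), replicate 5 of Mars1 (4548, others 5407 to 5672), replicate 3 of Osbpl5 (133, others 323 to 451) and replicate 5 of Pdia4 (8339, others 7202 to 7388). Also apart was replicate 4 of Srxn1 (10203, others 11040 to 11262). At 24 h the arrays that stood apart were replicate 2 of Ehhadh (43565, others 47503 to 48752), replicate 1 of Grn (4730, others 5925 to 6152), replicate 2 of Kdr (171, others 581 to 745) and replicate 5 of Lmcd1 (361, others 278 to 292). A further set held replicate 3 of Sars1 (8022, others 6581 to 6833).

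For 92 named genes the change from 24 h to 48 h at 1000 uM differed from that in DMSO by limma's test of the difference (adjusted p under 0.05). The values are log2 differences, the change at 1000 uM minus the change in DMSO. At 1000 uM the change was higher for 46 of them. The largest differences were Slc7a3 (2.62), Cd6 (2.45), Sult1c3 (1.75), Fads2 (1.66), Sectm1b (1.64), Cyp17a1 (1.59), Slc17a2 (1.56), Prss23 (1.50), Cyp3a2 (1.40), Spc24 (1.32) and Oat (1.32). Next came Lpl (1.27), Slc10a1 (1.22), Fabp1 (1.13), Otc (0.99), Bdh1 (0.99), Cyp2e1 (0.96), Pik3c2g (0.90), Aqp7 (0.80), Acot8 (0.79), Slco1b2 (0.79) and Cyp4f4 (0.76). Smaller ones were Cyp2c13 (0.72), Pnpla3 (0.71), Cyp8b1 (0.70), Tfrc (0.68), Fads1 (0.67), Slc11a2 (0.66), Prodh2 (0.62), Tk1 (0.62), Slc37a4 (0.59), Lss (0.55) and Acads (0.54). Then followed Acadm (0.52), Fasn (0.47), Crp (0.47), Asgr1 (0.46), Cpt1b (0.44), Gsta4 (0.44), Sdha (0.43), Pxmp2 (0.41), Decr2 (0.40), Ctsd (0.38) and Acly (0.28). The smallest were Ndufs3 (0.21) and P4hb (0.19). At 1000 uM the change was lower for 46 of them. Among these genes the largest differences were Il1r2 (-1.82), Osbpl5 (-1.64), C1qb (-1.54), Slc43a2 (-1.51), Procr (-1.50), Mthfd2 (-1.49), A2m (-1.45), S100a6 (-1.38), Cryab (-1.24), Abcc2 (-1.15) and Trib3 (-1.05). Next came Slc7a1 (-1.02), Asns (-0.96), Apoa5 (-0.95), Ahsg (-0.91), Chac1 (-0.91), Slc7a11 (-0.88), Fgf21 (-0.80), Sars1 (-0.76), Yars1 (-0.72), C1r (-0.71) and Gadd45a (-0.70). Smaller ones were Nupr1 (-0.69), Srxn1 (-0.68), C6 (-0.67), Gpc4 (-0.67), Cyp4a1 (-0.66), Gars1 (-0.64), Cyp1a2 (-0.61), Atf4 (-0.61), Iars1 (-0.56), Mars1 (-0.56) and Pck2 (-0.56). Then followed Aars1 (-0.55), Slc16a6 (-0.53), Rora (-0.47), Fgb (-0.47), C3 (-0.46), Ifitm3 (-0.45), Tpm4 (-0.43), Nars1 (-0.42), Cars1 (-0.41), Angptl4 (-0.31) and Dnajb9 (-0.27). The smallest were Slc16a1 (-0.24) and Dgat2 (-0.19).

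Of the 92 differences 68 passed under all alternatives and 0 reversed. Poly-A scaling lost 21 of them. Leaving out a single array lost 2 to 7, with 7 lost without replicate 1 of DMSO at 24 h, namely Acly, C1qb, Fasn, Osbpl5, Pnpla3, Rora and Sectm1b. Without replicate 1 of DMSO at 48 h 2 were lost, C1qb (-1.41, adjusted p = 0.0612) and Pck2 (-0.55, adjusted p = 0.0649), and Pck2 was lost under most alternatives.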

How the results depend on the processing

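Scaling on the poly-A spike-in transcripts changed most counts of probe sets. The falls at 1000 uM then numbered 671 (2049 as deposited), the rises and falls in DMSO 1567 and 121 (722 and 571), the falls at 60 uM 172 (735), the differences from DMSO 160 higher and 386 lower (776 and 768), and the differences from 60 uM 42 and 36 (304 and 270). The share of rises was then 73.5% at 1000 uM, 92.8% in DMSO and 77.8% at 60 uM, and 29.3% for the difference from DMSO, against 47.4%, 55.8%, 54.7% and 50.3% as deposited. Median centring gave 38.5% of rises at 60 uM and 65% of higher differences from 60 uM, against 53%. With only the groups compared in the fit, DMSO gave 438 rises and 320 falls. The medians of the NRF2, cell cycle, YAP, proteasome and ribosomal lists turned positive under poly-A scaling. The cause of these shifts was not tested.

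Leaving out 1 array at a time gave 1609 to 1789 rises and 1774 to 1933 falls at 1000 uM, 576 to 691 and 442 to 547 in DMSO, and 699 to 902 and 561 to 744 at 60 uM. The differences from DMSO ran from 658 to 751 higher and 650 to 774 lower, and those from 60 uM from 240 to 325 and 221 to 286. The 48 h minus 24 h difference ran from -0.133 to -0.0258 for the actin ratio, -0.018 to -0.00219 for the GAPDH ratio, -0.12 to -0.0641 for the log2 poly-A signal, 0.0331 to 0.0659 for the log2 hybridisation control signal and -0.215 to 0.157 for the percent above the floor. The exact permutation p was 0.0476 for poly-A signal without replicate 3 of 24 h and for hybridisation controls without replicate 1 of 24 h, against 0.111 for each with all arrays.

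Of 175 named genes 155 passed at 1000 uM, 134 of them under every alternative, 0 reversed, and 6 of the other 20 passed under some alternative. The labels give no replicate number, only a running number that passes through the 6 groups 5 times. With each pass as a block (added after seeing the data) 1901 probe sets rose and 2106 fell at 1000 uM, against 1845 and 2049 without the block, and 825 and 814 differed from DMSO. Deviations of the 48 h and 24 h arrays of a pass correlated at -0.0471 to 0.0496. The actin 3'/5' ratio did differ between passes. At 1000 uM it was 2.72 at 24 h and 2.68 at 48 h in pass 1, and 2.39 and 2.37 in pass 5. Whether the passes pair cultures was not tested. Among the named changes at 1000 uM only Col3a1 lost its call under the block (adjusted p = 0.0573). The number of arrays, and signals near the floor in Klrg1, Slc17a2, Il1rn, C1qb, Vopp1, Cd6 and Slc7a3, limit the precision.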
